A study of Mus musculus with 48 samples.

Results

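Cohesin, the proteins that load, release and modify it, and CTCF itself were examined as genes: 10 loci at which the binding of CTCF and of cohesin was recorded. The genes were Smc3, Rad21 and Stag1 (subunits of the cohesin ring), Nipbl and Mau2 (the loader), Wapl, Pds5a and Pds5b (release and regulation of cohesin on chromatin), Esco1 (an acetyltransferase that acts on SMC3) and Ctcf. They were chosen by name, 10 of 21887 protein-coding genes with a span in RefSeq's annotation of GRCm38.p6, the assembly also called mm10, and every peak within 50 kb of a span was taken. The mouse embryonic stem cells were of the E14Tg2a line, strain 129/Ola. All of them carried an auxin-inducible degron on endogenous CTCF and a transgene encoding FLAG-tagged CTCF that doxycycline switches on. The transgene was wild type (WT) or carried 1 of 9 changes named by residue: R339Q, R342C, S354F and K365T, then R377C and R377H at a shared residue, then Q418R, R448Q and H455R. Treated cells received 500 µM indole-3-acetic acid (IAA, an auxin) and 1 µg/ml doxycycline for 2 days. All 10 FLAG lists, all 10 SMC3 lists and 1 CTCF antibody list come from treated cells, and 1 CTCF antibody list comes from untreated WT cells. Chromatin was crosslinked with EGS and formaldehyde and profiled by ChIPmentation, in which a transposase adds sequencing adapters to immunoprecipitated chromatin. FLAG peaks mark transgene CTCF, SMC3 peaks mark cohesin, and the CTCF antibody recognises endogenous and transgene protein alike. Whether separate clones or how many clones stand behind a genotype is not given in the sources used here.

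Cohesin is a ring that holds sister chromatids together and extrudes chromatin loops. NIPBL with MAU2 loads it and drives extrusion, WAPL with the PDS5 proteins releases it, ESCO1 acetylates SMC3 and makes a fraction of it more stable, and CTCF bound to DNA in a given orientation halts it, so that loops end at CTCF sites. CTCF binds through a row of zinc fingers, the domain in which the mutants' residues lie. Both are essential in embryonic stem cells.

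The lists held 15392 FLAG peaks in WT and from 3855 (H455R) to 30462 (R377C) in the mutants. SMC3 lists held 71962 peaks in WT and from 42030 (Q418R) to 153647 (R448Q) in the mutants. Each list pools 2 replicates, so a genotype gives 1 value per antibody, replicates could not be compared and no test between genotypes was possible; nothing in the labels says whether the replicates were separate cultures. Depth per library is unknown, and 95% Wilson intervals cover counting error over peaks only. The strength of a peak is given as its percentile by score within its own list, which places a peak among the others of that list and shows no change between lists.

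Near the 10 genes lay 17 WT FLAG peaks and 103 WT SMC3 peaks, 163 CTCF antibody peaks in treated cells and 258 in untreated cells. In the mutants the FLAG count ran from 3 (H455R) over a median of 15 to 36 (Q418R), and the SMC3 count from 55 (Q418R) over a median of 108 to 197 (R448Q). Q418R and R448Q have the shortest and the longest SMC3 list, and SMC3 counts per gene are not corrected for list length unless given per 10000 peaks. WT FLAG peaks were found near 7 of the 10 genes, and Rad21, Mau2 and Pds5a had none; over all protein-coding genes the share with such a peak was 63.3%. All 10 genes had a WT SMC3 peak (all genes 80.2%), a treated CTCF antibody peak (88.6%) and an untreated one (90.1%). Windows differ in length, so densities were also taken. The median over the genes was 0.69 WT FLAG peaks per 100 kb against 0.83 over all genes, and 4.68 WT SMC3 peaks per 100 kb against 3.53. The order was the reverse for FLAG in K365T and Q418R and for SMC3 in R339Q, R342C and K365T. Both FLAG medians were 0 in H455R, and the remaining mutant lists had the order of WT.

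**Figure D1:**
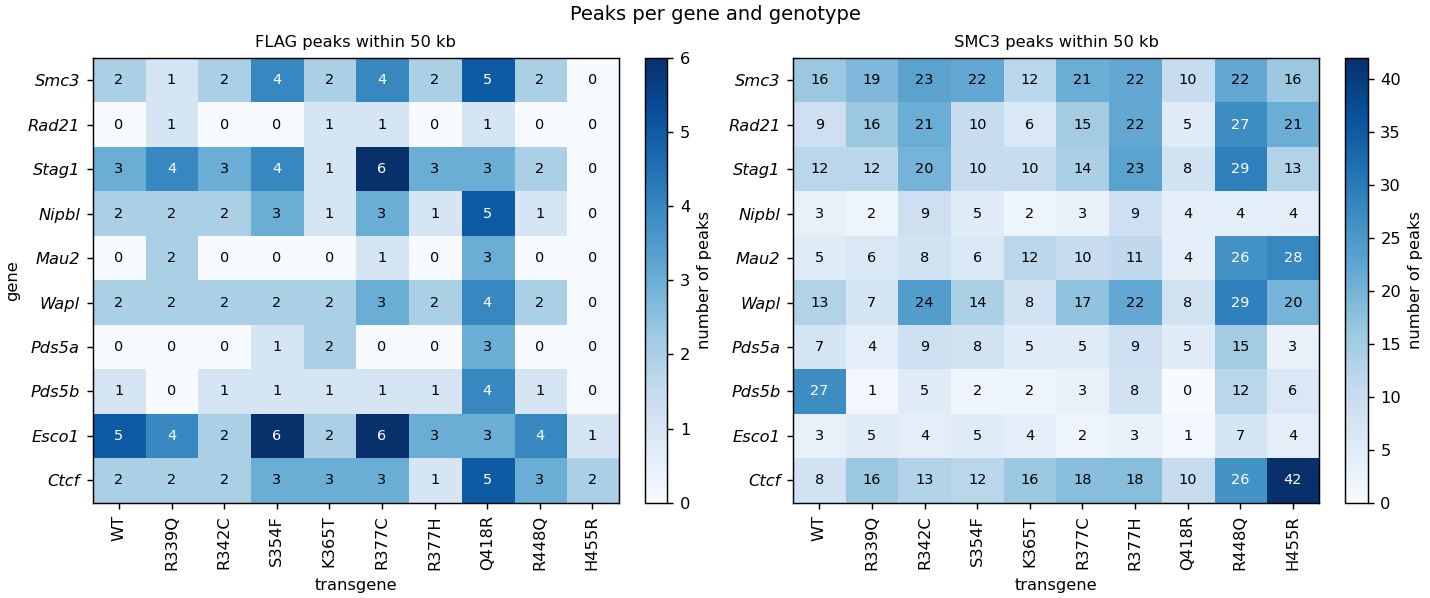
Number of FLAG (left) and SMC3 (right) peaks within 50 kb of each gene (rows) for each transgene (columns). WT has 27 SMC3 peaks near Pds5b, where the mutants have 0 to 12, and H455R has 42 near Ctcf, where WT has 8.

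Of the genes with a promoter in the table used, Pds5b alone had a WT FLAG peak over it, and its sequence is shown with those of Stag1 and Ctcf, which differ from it in what was bound. The RefSeq promoter table (GRCm38.p6, 250 bases before to 50 after a start) matched 7 of the 10 genes; Rad21, Nipbl and Esco1 were not matched. The Pds5b promoter (chr5:150673577-150673876, plus strand) lay wholly inside a WT FLAG peak. The Stag1 promoter (chr9:100643198-100643497, plus strand) lay just before a WT FLAG peak and under an SMC3 peak in all 10 genotypes, with FLAG over it in R339Q, S354F, R377C and Q418R. The Ctcf promoter (chr8:105636288-105636587, plus strand) held a CTCF antibody peak in treated and untreated cells and no FLAG peak in any genotype. Capitals mark matches to AGNNGGC on either strand, a short form of the CTCF core that was chosen after the data were seen.
Pds5b: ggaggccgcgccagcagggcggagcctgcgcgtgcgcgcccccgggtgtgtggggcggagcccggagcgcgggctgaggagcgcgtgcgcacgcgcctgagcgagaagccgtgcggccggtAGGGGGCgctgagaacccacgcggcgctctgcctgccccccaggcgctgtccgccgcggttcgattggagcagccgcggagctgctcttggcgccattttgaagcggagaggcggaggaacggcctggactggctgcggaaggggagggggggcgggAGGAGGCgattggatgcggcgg
Stag1: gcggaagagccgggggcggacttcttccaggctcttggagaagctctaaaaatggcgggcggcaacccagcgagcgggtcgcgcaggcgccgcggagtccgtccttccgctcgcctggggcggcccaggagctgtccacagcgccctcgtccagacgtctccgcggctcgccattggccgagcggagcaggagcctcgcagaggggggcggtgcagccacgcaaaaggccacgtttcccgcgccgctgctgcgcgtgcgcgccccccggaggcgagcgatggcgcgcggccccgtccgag
Ctcf: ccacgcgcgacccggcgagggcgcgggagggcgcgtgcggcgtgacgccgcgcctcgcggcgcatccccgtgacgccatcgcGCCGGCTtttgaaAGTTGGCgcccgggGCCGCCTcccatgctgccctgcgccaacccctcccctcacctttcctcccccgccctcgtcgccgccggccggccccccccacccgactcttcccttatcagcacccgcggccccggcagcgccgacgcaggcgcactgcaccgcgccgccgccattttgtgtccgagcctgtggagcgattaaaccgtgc

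The Pds5b promoter had 2 such matches, at bases 122 to 128 and 279 to 285 counted from its 5′ end, the Ctcf promoter had 3 and the Stag1 promoter had 0. Of 32851 promoters of 300 bases, 59.8% held the short motif, so its presence separates little; among the 731 with a WT FLAG peak the share was 85.1%. A longer core, CCANNAG followed after any 2 bases by GG, was searched on both strands as well. It was in none of the members' promoters, in 7.03% of all promoters and in 27.2% of those with a WT FLAG peak. A match describes letters in this window and not a bound site.

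At the cohesin subunits, FLAG sites flanked the Smc3 gene and were kept in most mutants. Smc3 (chr19:53600396-53645831) encodes a structural arm of the ring and is the target of the SMC3 antibody. Its upstream site (chr19:53578792-53579251, 21.1 kb before the gene) stood at percentile 25.5 in WT and was present in 7 mutants, all but R339Q and H455R. In the 8 lists with the peak the percentile ran from 7.24 (S354F) over a median of 29.1 to 67.2 (R448Q). SMC3 lay there in WT and in 8 mutants, and R339Q lacked both the FLAG and the SMC3 peak. Its downstream site (chr19:53648830-53649052, 3.00 kb past the gene) stood at percentile 48.7 in WT, was missing only in H455R, and carried SMC3 in all 10 genotypes at percentiles from 88.4 to 98.7. SMC3 was thus present in H455R at a site where its FLAG list held no peak. In the whole Smc3 window SMC3 peaks numbered 16 in WT and ran from 10 (Q418R) over a median of 21 to 23 (R342C).

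Stag1 (chr9:100597709-100958544), which encodes a subunit that contacts CTCF, had 3 WT FLAG sites, all with WT SMC3. The site inside the span, next to the promoter shown above (chr9:100643519-100643733), stood at percentile 54.5 and was missing in K365T, R377H, R448Q and H455R. SMC3 was present there in all 10 genotypes, from percentile 31.9 (Q418R) over a median of 85.5 to 91.4 (S354F). The upstream site (chr9:100548504-100548623) was missing in K365T and H455R. The downstream site (chr9:101002218-101002323, within Pccb) was missing only in H455R. At both of these flanking sites H455R also lacked the SMC3 peak, which WT and the other mutants had. The Stag1 window held 12 SMC3 peaks in WT and from 8 (Q418R) over a median of 13 to 29 (R448Q) in the mutants.

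Rad21 (chr15:51962604-51993538), the subunit that closes the ring, had no WT FLAG site. R339Q, K365T, R377C and Q418R each had 1 FLAG peak in its window, and the remaining mutants had none. It had 9 SMC3 peaks in WT and from 5 (Q418R) over a median of 16 to 27 (R448Q) in the mutants. CTCF antibody peaks numbered 12 in untreated and 6 in treated cells, the lowest count of the 10 genes in both.

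Of the 17 WT FLAG sites, 6 had no WT SMC3 peak, and all 6 lay near Nipbl or Esco1. Nipbl (chr15:8289824-8465315), whose product is the loader's larger subunit, had 2 sites within its span. The stronger (chr15:8450969-8451378) stood at percentile 77.7 in WT and was missing only in K365T and H455R; SMC3 peaks were there in R342C, R377H, R448Q and H455R but not in WT. The weaker (chr15:8445457-8445598) stood at percentile 10.8 in WT, was kept in S354F, K365T and R377C, and had SMC3 only in R448Q. K365T therefore kept the weaker site, at percentile 90.1 of its own list, and lacked the stronger. Nipbl had 3 SMC3 peaks in WT and 2 to 9 in the mutants.

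Mau2 (chr8:70014527-70042734), the loader's other subunit, had no WT FLAG peak. R339Q had 2 FLAG peaks in its window, R377C 1 and Q418R 3. Its SMC3 count was 5 in WT and ran from 4 (Q418R) over a median of 10 to 28 (H455R), with 26 in R448Q. The table gives Mau2 a pair of promoters, neither with a CTCF antibody peak; that at the gene's start (chr8:70042685-70042984) carried SMC3 in R342C, K365T, R448Q and H455R, and the other (chr8:70029464-70029763) in no genotype. Per 10000 list peaks, SMC3 near Mau2 was 0.69 in WT, 2.85 in H455R and 1.69 in R448Q.

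Wapl (chr14:34672379-34747983), the release factor, had 2 FLAG sites downstream. The nearer (chr14:34768960-34769298, 21.0 kb away) stood at percentile 87.0 in WT and was missing only in H455R. The farther (chr14:34777849-34778179) stood at percentile 71.3 and was missing in R339Q and H455R. SMC3 lay at both in all 10 genotypes, at the farther from percentile 91.3 (R339Q) to 99.2 (S354F). The Wapl promoter had no CTCF antibody peak and an SMC3 peak in WT and 5 mutants. SMC3 peaks in the window numbered 13 in WT and ran from 7 (R339Q) over a median of 17 to 29 (R448Q).

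Pds5b (chr5:150673713-150810669) and Pds5a (chr5:65605719-65698236) encode alternative partners of WAPL that also take part in acetylation. The Pds5b site over the gene's start (chr5:150673524-150673910) stood at percentile 87.0 in WT and was present in 7 mutants, missing in R339Q and H455R. Among lists with the peak its percentile ran from 4.74 (Q418R) over a median of 60.1 to the WT value. SMC3 was there in WT and 6 mutants and was missing in R339Q, R377C and Q418R. H455R had SMC3 at this promoter without FLAG, and R377C and Q418R had FLAG without SMC3. Pds5a had no WT FLAG site; S354F had 1 FLAG peak in its window, K365T 2 and Q418R 3. Its promoter held CTCF antibody peaks at percentile 80.2 in treated and 86.8 in untreated cells and FLAG only in Q418R. The Pds5a window held 7 SMC3 peaks in WT and from 3 (H455R) over a median of 5 to 15 (R448Q) in the mutants.

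Esco1 (chr18:10566507-10610863) had the most WT FLAG sites, 5, and contained both extremes of retention. The site at the neighbouring gene Snrpd1 (chr18:10617558-10617968, 6.70 kb from the span) was present in all 10 FLAG lists. Its percentile ran from 81.1 (WT) over a median of 94.3 to 99.2 (S354F), and it was 96.7 in H455R. SMC3 was there in 6 genotypes and missing in R339Q, R377C, R377H and Q418R. The other 4 sites had no SMC3 in WT and none of them overlapped a FLAG peak of R339Q, Q418R or H455R. The site inside the span (chr18:10610330-10610649) was kept in 5 mutants, and 3 sites within Greb1l in 2, 3 and 4. Q418R had a FLAG peak beside the site inside the span that did not overlap it (chr18:10609907-10610250). With peaks within 500 bp counted, Q418R kept 12 of the 17 sites. The least kept of the 17 (chr18:10531752-10531852) was found only in S354F and K365T besides WT. Over the whole of chromosome 18, WT FLAG sites were kept less often than elsewhere in every mutant but H455R. The shares were 40.5% against 53.6% in R339Q and 75.7% against 90.2% in R377C, for example, and 13.38% against 10.35% in H455R. The part of the chromosome in the Esco1 counts was not tested. With 3 SMC3 peaks in WT and 1 (Q418R) to 7 (R448Q) in the mutants, the Esco1 window was, like that of Nipbl, low in SMC3; its CTCF antibody peaks numbered 14 in treated and 22 in untreated cells.

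Ctcf (chr8:105636474-105682922) had a WT FLAG site on either side, and these were kept in different numbers of mutants. The upstream site (chr8:105622441-105622669, 13.8 kb before the gene) stood at percentile 37.1 in WT and was kept in R342C, S354F and R377C only. The downstream site (chr8:105714135-105714517, 31.2 kb past the gene, within Gfod2) stood at percentile 45.0 in WT and was kept in all 9 mutants, up to percentile 96.9 in H455R. SMC3 was present at both in all 10 genotypes, from percentile 85.2 (Q418R) to 98.0 (R377C) upstream and from 89.1 (S354F) to 99.2 (R448Q) downstream. Upstream, 6 mutants thus had SMC3 where their FLAG list had no peak. The CTCF antibody peak at the upstream site was at percentile 99.6 in untreated cells, the strongest in any of the 10 windows, and at 99.0 in treated cells.

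**Figure D2:**
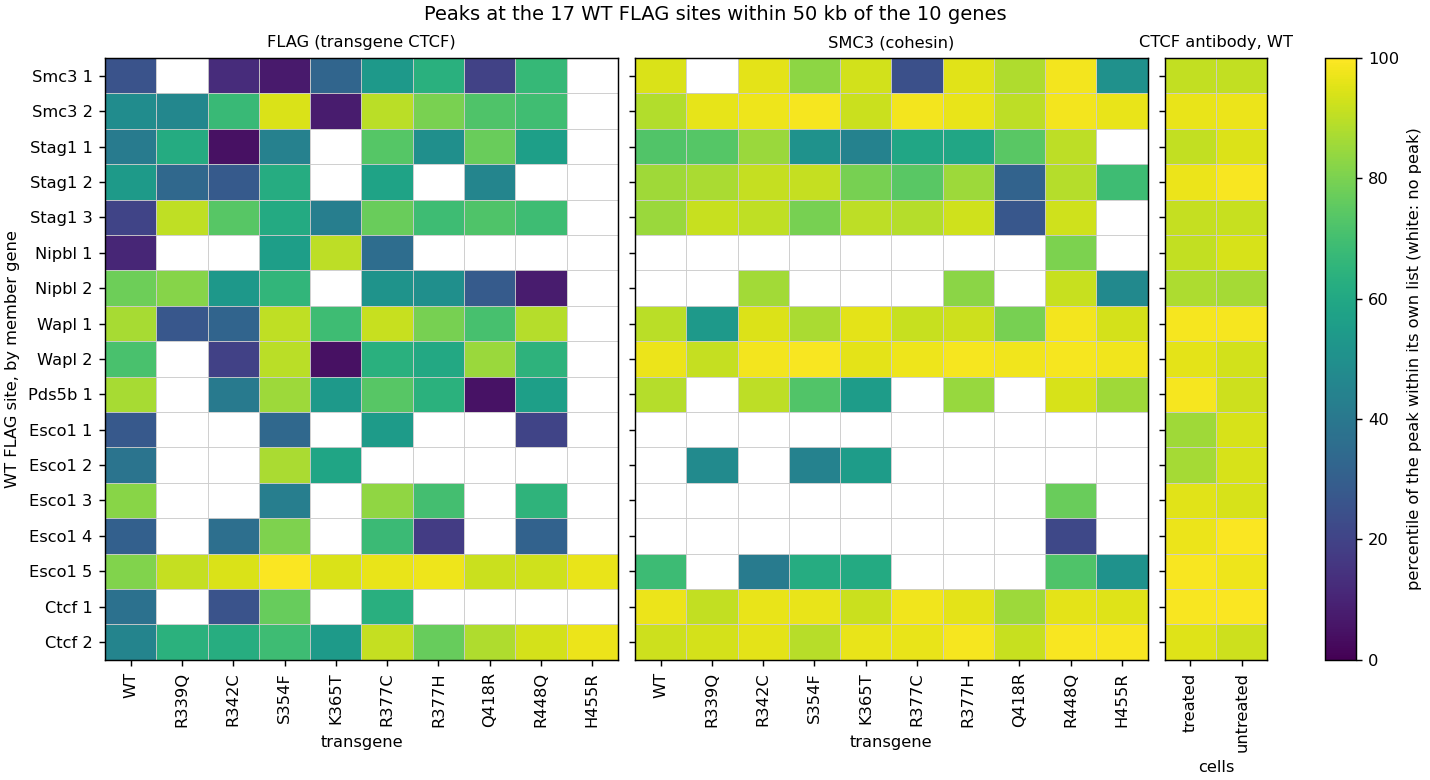
Percentile of the peak within its own list (colour; white, no peak) at each of the 17 WT FLAG sites (rows, numbered by coordinate within a gene) for FLAG and SMC3 in each transgene and for the CTCF antibody in treated and untreated WT cells. The last FLAG column, H455R, holds 2 peaks, at Esco1 5 and Ctcf 2, and the white block in the SMC3 panel covers Nipbl and Esco1 sites.

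Counted over the 17 sites, the share kept in each mutant followed that over all WT FLAG sites. R339Q kept 8 (all sites 53.1%), R342C 13 (72.2%), S354F 17 (86.2%), K365T 10 (52.1%) and R377C 16 (89.6%). R377H kept 12 (71.8%), Q418R 11 (59.2%), R448Q 13 (75.2%) and H455R 2 (10.5%). In all 9 mutants the share over all sites lay inside the interval around the members' share, so at 17 sites no difference from the whole list was detectable. The mean over mutants was 66.7% ± 26.3 (SD, n = 9 mutants) near the members and 63.3% over all sites. A site was kept in a median of 7 mutants, against 6 over all WT FLAG sites. Of the 17 sites, 2 were kept in all 9 mutants, against 775 of 15392 over the whole list. Another 3 were missing in H455R alone, and the same count over the whole list is not given here. All 17 sites had a CTCF antibody peak in treated cells (all sites 91.1%) and in untreated cells (91.2%). WT SMC3 was at 11 of 17, 64.7% (41.3 to 82.7), against 81.2%.

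At those 11 sites SMC3 was kept at more sites than FLAG in 5 mutants, at as many in R342C and S354F and at fewer in R377C and Q418R. R342C, S354F, K365T and R448Q kept SMC3 at all 11 (all sites 96.6%, 81.4%, 89.9% and 97.9%). R377H kept 10 (91.3%), R377C 9 (87.3%), Q418R 9 (74.1%), H455R 9 (77.9%) and R339Q 8 (78.0%). Again all 9 shares over all sites lay inside the members' intervals. H455R had SMC3 without FLAG at 7 of the 11, K365T at 3, R339Q, R377H and R448Q at 2 each and Q418R at 1. R377C and Q418R had FLAG without SMC3 at 2 each, and R339Q and R377H at 1 each. The same joint counts over all sites are not given here, so those at the 11 sites cannot be set beside them. Over the whole list H455R kept FLAG at 10.5% of WT FLAG sites and SMC3 at 77.9% of those with WT SMC3. The SMC3 peak was in every genotype at 6 sites: the downstream Smc3 site, the Stag1 site in the span, both Wapl sites and both Ctcf sites. The share of all WT FLAG sites with SMC3 in every genotype is not given here, so the 6 cannot be compared with it.

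**Figure D3:**
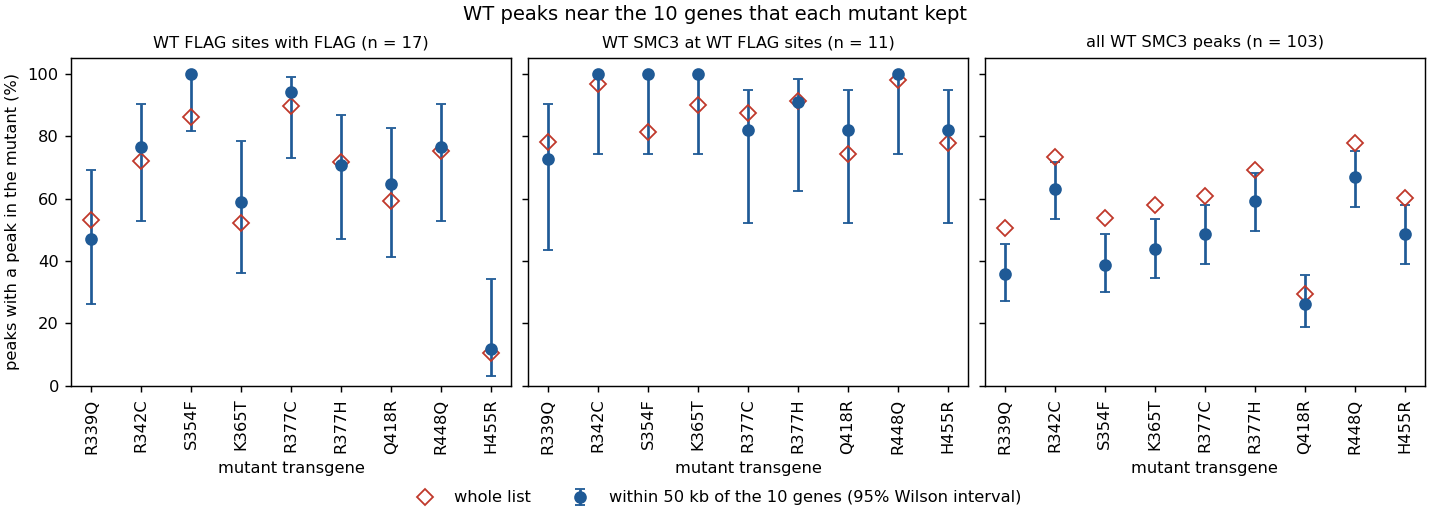
Share of WT peaks with an overlapping peak in each mutant, within 50 kb of the 10 genes (filled circles, with 95% Wilson intervals) and over the whole list (open diamonds), for FLAG sites, SMC3 at FLAG sites and all SMC3 peaks. In the right panel 8 of 9 diamonds lie above the interval.

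The 103 WT SMC3 peaks as a whole were kept less often than those of the whole list, and most of the peaks found in no mutant lay near Pds5b. The counts were 37 in R339Q (all peaks 50.5%), 65 in R342C (73.3%), 40 in S354F (53.7%), 45 in K365T (57.8%) and 50 in R377C (60.7%). They were 61 in R377H (69.0%), 27 in Q418R (29.3%), 69 in R448Q (77.8%) and 50 in H455R (60.2%). The mean over mutants was 47.9% ± 13.4 (SD, n = 9 mutants) against 59.1% over all peaks, and every mutant but Q418R fell outside its interval. Without Pds5b the mean was 61.0%. Of the 103 peaks, 11 lay at a WT FLAG site, 27 at a CTCF antibody peak only and 65 away from both; 63.1% were in this last class near the members and 51.9% over the whole list.

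Near Pds5b, WT had 27 SMC3 peaks, 3.75 per 10000 of its list, and the mutants 0 to 12, with a median of 3 and at most 0.78 per 10000 (R448Q); Q418R had none, R339Q 1, S354F and K365T 2 each and R448Q the most. Of the 27 peaks, 17 were in no mutant; these had a median percentile of 27.7 within the WT list, against 53.5 for the 10 found in at least 1 mutant. Of the 17, 5 lay at a CTCF antibody peak, and of the other 10, 4 did. The share of all WT SMC3 peaks found in no mutant is not given here, so the 17 cannot be set beside it. The surroundings showed the same: 1.10% of the WT SMC3 list lay within 2 Mb of Pds5b, against 0.27% (R448Q) to 0.46% (Q418R) in the mutants, with a median of 0.33%. The WT FLAG list held 0.51% of its peaks there and the mutants 0.03% (H455R) to 0.39% (R377H). Of the WT SMC3 peaks in this region, 3.43% lay in the Pds5b window, against 0 to 2.86% in the mutants. A higher WT share was thus measured over the region as well as in the window, in the SMC3 list and, by less, in the FLAG list. The number of copies of this region in each line was not measured, and its part in the counts was not tested.

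**Figure D4:**
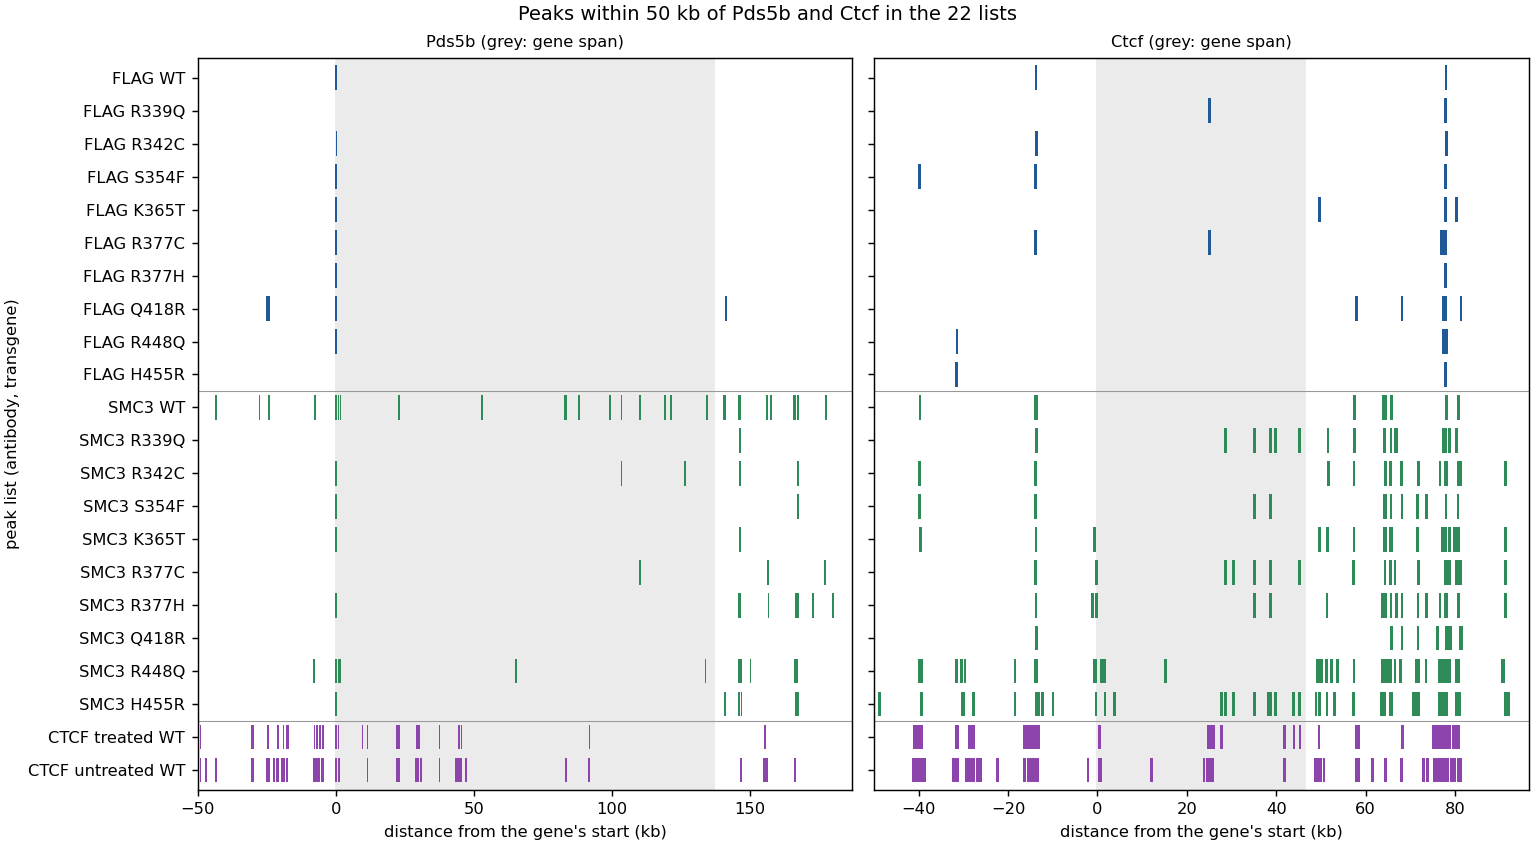
Peaks (bars, drawn at least 0.6 kb wide) within 50 kb of Pds5b and Ctcf by distance in kb from the gene's start, 1 row per peak list; grey marks the gene span. At Pds5b 8 of 10 FLAG lists hold the peak at the start and WT SMC3 has the most peaks; at Ctcf every FLAG list has the downstream peak and SMC3 in H455R has the most.

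Near Ctcf, SMC3 counts were higher than in WT in all 9 mutants: 8 in WT, and from 10 (Q418R) over a median of 16 to 42 (H455R) in the mutants, with 26 in R448Q. Of those lists, 8 are longer than that of WT, so counts were also taken per 10000 peaks of the list: 1.11 in WT, and from 1.15 (R342C) over a median of 1.69 to 4.28 (H455R), so that R342C differed little from WT. Within the gene's span WT had no SMC3 peak and H455R had 11. Peaks of the 10 genotypes in the span fell into 13 intervals, of which 2 were shared by 5 mutants (R339Q, S354F, R377C, R377H and H455R), at 34.8 and 38.4 kb from the span's start. Neither of these had a CTCF antibody or FLAG peak. The cells carry a Ctcf transgene, and reads from its coding sequence cannot be told apart from those of the gene's exons; its part in these peaks was not tested.

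Mau2 and Ctcf both lie on chromosome 8, and this chromosome held an unusual share of the H455R lists. It took 30.2% of H455R FLAG peaks against 5.50% in WT, and 12.4% of H455R SMC3 peaks against 3.73% in WT. R448Q came next, with 9.81% of FLAG and 8.29% of SMC3 peaks. Within 2 Mb of Mau2 lay 0.93% of the H455R SMC3 list against 0.28% in WT, and within 2 Mb of Ctcf 0.87% against 0.25%. H455R kept 17.7% of WT FLAG sites on chromosome 8 and 10.0% of those elsewhere, and 82.5% of WT SMC3 peaks there against 59.3% elsewhere. H455R and R448Q, with the highest SMC3 counts at Mau2 and Ctcf, were thus also the genotypes with the highest chromosome 8 shares. Per 100 kb, H455R had 21.84 SMC3 peaks near Mau2 and 28.68 near Ctcf, with a median of 18.53 over the protein-coding genes of chromosome 8. R448Q had 20.28 and 17.75, with a median of 18.67. WT had 3.9 and 5.463, with a median of 3.983. The part of the chromosome in these counts cannot be told apart from an effect at these genes. The same holds for the H455R FLAG peak downstream of Ctcf, at a site that was kept in all 9 mutants. Chromosome copy number in the lines was not measured here. At the 8 genes on other chromosomes, H455R kept 1 of 15 FLAG sites, the Esco1 site at Snrpd1.

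**Figure D5:**
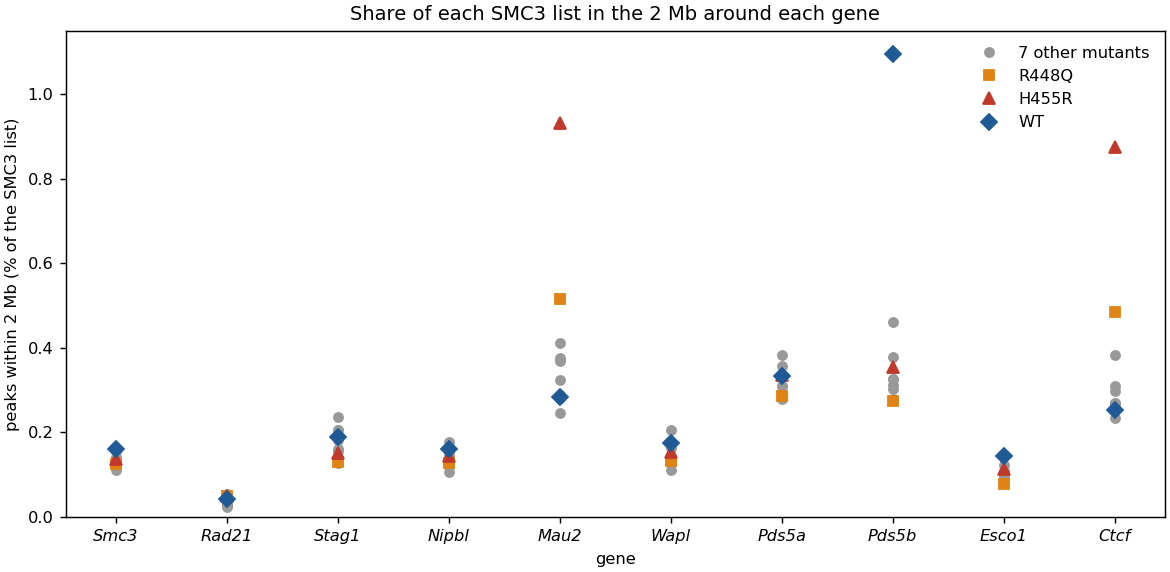
Share of each SMC3 list (% of its peaks) within 2 Mb of each gene, for WT, R448Q, H455R and the 7 other mutants. WT stands above all mutants at Pds5b and H455R above all other lists at Mau2 and Ctcf. At the other 7 genes the highest share is 0.383% (R342C at Pds5a).

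CTCF antibody peaks near the genes were kept on treatment about as often as those of the whole list. Of 258 untreated peaks, 140 had a treated peak, 54.3% (48.2 to 60.2), against 56.9% over the whole list; 149 of 163 treated peaks had an untreated one, 91.4% against 91.7%. Weak peaks were kept less often than strong ones, near the genes as over the whole list. In the lower 50% of the untreated list 20.7% were kept (25 of 121; whole list 25.1%), and from 50 to 75% it was 69.4% (50 of 72; whole list 75.9%). From 75 to 90% all 39 were kept, and in the top 10% all 26, where the whole list kept nearly all as well. Wapl kept 10 of 23 and Ctcf 15 of 30, whereas Smc3 kept 17 of 27 and Stag1 22 of 34. The strongest untreated peak without a treated one stood at percentile 66.0 and lay within Stag1 (chr9:100917658-100918010). For Wapl it stood at 65.7 and for Ctcf at 48.8. Some untreated peaks in the top 10% of the list had no FLAG peak in any genotype. These were 2 of 3 near Pds5b, 1 of 6 near Ctcf and the single 1 near Mau2. Every top 10% peak near the other genes had FLAG in at least 1 list. The same share over the whole list is not given here, so these counts cannot be set against it.

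FLAG peaks that overlapped no WT peak made 56 merged sites near the genes. Counting every overlapping FLAG peak, those that also reach a WT site included, 42 of the 56 were in a single mutant, 11 in 2, 2 in 3 and 1, near Esco1, in 4. Of the 56, 45 lay at a CTCF antibody peak of treated or untreated cells, and 7 at a WT SMC3 peak. The same shares over all such sites of the lists are not given here. Whether the 56 differ from the rest in these counts cannot be judged. Q418R had 25 peaks outside WT, and 23 of the 42 single-mutant sites were its own; its share outside WT, 69.4% of its 36 peaks, was near the 70.2% of its whole list. In 3 mutants the share was low enough for the whole-list value to lie outside its interval. R342C had 1 among 14 peaks, 7.14% (1.27 to 31.5), against 33.0%. R377H had 1 among 13, 7.69% (1.37 to 33.3), against 33.6%. R448Q had 2 among 15, 13.3% (3.74 to 37.9), against 40.6%. The strongest of the 56 was in Q418R within Nipbl (chr15:8291109-8291764, percentile 96.6). The next, upstream of Ctcf within Ripor1 (chr8:105604669-105605218), was shared by H455R, at percentile 95.3, and R448Q, the pair of genotypes with the highest chromosome 8 shares. Q418R had another at percentile 94.2, within Hapln4 in the Mau2 window (chr8:70087476-70088260). A site within the Ctcf span (chr8:105661193-105661449) was shared by R339Q and R377C. For Rad21 the strongest was in K365T at percentile 19.6, and for Pds5a in K365T at percentile 82.3.

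Cohesin away from CTCF was found near 9 of the genes. Esco1, with 3 WT SMC3 peaks in its window, had none outside FLAG and CTCF antibody sites. Such peaks made 51.9% of the whole WT SMC3 list. The share of all protein-coding genes with such a peak is not given here, so the 9 cannot be set against it. The strongest such peak per gene ran from percentile 55.4 near Ctcf (chr8:105701974-105702255, within Pard6a) to 84.0 downstream of Pds5b (chr5:150839849-150840280). For Rad21 it lay within the gene (chr15:51992269-51992420, percentile 80.7), and for Wapl too (chr14:34693898-34694507, percentile 80.7).

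A further 14 genes of the pathway were counted in the same way. WT FLAG peaks were near 11 of 14 and WT SMC3 peaks near 12 of 14, and all 14 had CTCF antibody peaks in treated and untreated cells. Smc1a, the partner of SMC3 in the ring, had 3 CTCF antibody peaks in treated cells and neither FLAG nor SMC3 in WT. Stag2, the alternative to STAG1, had 1 FLAG site, kept in 6 mutants, and no SMC3. Smc1a and Stag2 lie on chromosome X, which held 0.32% of the WT SMC3 list and 1.46% of the WT FLAG list. Hdac8, also on X, had 1 FLAG and 1 SMC3 peak in WT. Ctcfl, the germline paralog of Ctcf, had 6 WT FLAG sites, the most of the 14, with 16 WT SMC3 peaks. Of the 6, 1 was kept in all 9 mutants, and no FLAG site of the other 13 genes was. Over the whole list 775 of 15392 WT FLAG sites were kept in all 9, so 1 such site does not set Ctcfl apart.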

How the data were processed

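Per the labels, 48 samples form 24 groups with 2 replicates each; 22 groups have a deposited peak list, pooled over both replicates by its title. The FLAG group of untreated cells and the IgG group were not analysed here. Per the submitters' processing notes, the tools were Trim Galore, Bowtie2, MACS2 and deepTools and the build mm10; no versions are given in the sources used here. The deposited peak value is a score from the authors' peak calling, and its measure is not stated. Peak names in most FLAG lists carry other replicate numbers than the titles. SMC3 peak names carry tags b1, b2 or b3, not explained in the sources: Q418R b3, R339Q b2, S354F and R377C b1 with b2, the others, WT included, b1. The FLAG and SMC3 lists of Q418R both have 42030 rows before merging, at different intervals. FLAG intervals repeated per summit were merged with the highest score.

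Overlap of at least 1 bp counted as shared (Python 3.11.15, numpy 2.4.6, pandas 2.3.3, scipy 1.17.1; figures, matplotlib 3.10.9), and the overlap function was tested on simulated data and against bedtools. Intervals are 95% Wilson. Spans and promoter sequences came from RefSeq (GRCm38.p6); exons were not used here.

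The genes, lists and tests were chosen with earlier results of these data known. Named sites are every WT FLAG site near a gene and, per gene, the strongest mutant FLAG peak outside WT, the strongest WT SMC3 peak away from CTCF and the strongest untreated CTCF peak without a treated one; the text gives a part of these. Shares by chromosome, the 2 Mb regions, all WT SMC3 peaks kept and the short motif were added after seeing the data. Cell identity could not be checked from peaks, and gene activity was not measured.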

Additional observations from a re-analysis of the deposited data

How the results depend on the processing

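The 17 and 11 sites are few, so shares moved by several sites' worth. A share was taken as moved when it left the main 95% interval, and a density when it changed by over 1.5 times; a mean over mutants was taken as moved past 1 SD. In all other cases and settings, window of 100 kb and leaving out the chromosome 8 genes included, values stayed within these limits, apart from single mutants' shares of all WT SMC3 peaks, of which 26 of 153 moved, 13 upwards and 13 downwards, 9 of them without Pds5b.

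A reciprocal overlap of 50% lowered most shares: FLAG kept in S354F to 52.9%, in R377C to 47.1% and in Q418R to 41.2%, and SMC3 kept at FLAG sites in Q418R and R448Q to 20% of 5, with a mean over mutants of 62.2%. Under it 25% of all WT SMC3 peaks were kept on average, 35.7% of untreated CTCF peaks had a treated one, 29.4% of FLAG sites had SMC3 and 5.88% had a treated CTCF peak. Within 500 bp, 69.4% of untreated CTCF peaks had a treated one.

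In the upper 50% of each list FLAG was kept in R342C at 28.6% and in R377C at 100% of 7 sites, SMC3 at FLAG sites in Q418R at 40% and in H455R at 100% of 5, and 62% of untreated CTCF peaks were kept. With equal numbers of top peaks FLAG was kept at 20% of 5 sites in R342C, K365T and Q418R, at 40% in R377C, R377H and R448Q and at 60% in S354F, with a mean of 33.3%. SMC3 was then kept at 0% of 3 sites in R339Q, 33.3% in R377C and Q418R and 66.7% in R342C, with a mean of 63%, and 72.1% of untreated CTCF peaks were kept; the median density was 0 for FLAG and 2.4 per 100 kb for SMC3.

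In a window of 10 kb FLAG was kept in R377C at 100% of 7 sites, SMC3 in R377C and Q418R at 50% and in H455R at 100% of 4, and the median FLAG density was 0.131 per 100 kb. Leaving out single genes, FLAG kept ranged from 71.4% to 91.7% in R342C, from 92.9% to 100% in R377C and from 57.1% to 83.3% in Q418R. SMC3 kept ranged from 87.5% to 100% in R377H and from 77.8% to 100% in H455R, and FLAG sites with SMC3 from 57.1% to 83.3%. Most of these upper ends came without Esco1, and that of H455R without Stag1. No paired analysis was possible because each list pools its replicates.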

Other observations

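Chromosomes without any of the 10 genes also took unequal shares of some lists, as seen after the chromosome 8 values. Chromosome 1 held 12.2% of FLAG and 11.3% of SMC3 peaks in R448Q and 10.4% of each in K365T, against 6.13% and 4.63% in WT. Chromosome 3 held 7.82% and 8.55% in R448Q, against 4.54% and 3.61% in WT. Chromosome 11 held 14.8% of FLAG and 16.0% of SMC3 peaks in R377H and 11.7% and 12.0% in K365T, against 7.11% and 4.81% in WT. Chromosome 6 was low in Q418R, with 3.44% of FLAG and 3.04% of SMC3 peaks against 6.95% and 12.2% in WT. In each of these cases the share differed from WT in the same direction for both antibodies. None of the 10 genes lies on these chromosomes, but Sgo2a (chromosome 1) and Pttg1 (chromosome 11) of the further pathway genes do, and shares over whole lists include them. Copy number was not measured.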
